A study of Mus musculus with 9 samples.

Results

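The genes described here have only transcripts of RefSeq's non-coding class in the deposited table, and had enough reads to follow in mouse neutrophils. The deposited table lists 24532 genes, of which 3822 have only RefSeq transcripts of the non-coding class. A non-coding gene was a member when its reads, summed over its transcripts, reached 200 in all 3 libraries of at least 1 tissue, which 151 genes did. The members were thus chosen by their read counts in these same libraries, so the levels below are a description. Of these, 76 reached 200 reads in all 9 libraries, 38 in the libraries of 2 tissues and 37 in those of 1 tissue. The members closest to the limit were 1110038B12Rik, with 200 reads in its lowest library of the best tissue, and 2310010J17Rik and 5830444B04Rik, with 202 each. The closest genes left out were 4933421O10Rik with 198, 1700071M16Rik with 194 and Gm7334 with 188.

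Neutrophils are phagocytes of innate immunity that live briefly after leaving the marrow. They were sorted by flow cytometry from the lung, the peripheral blood and the bone marrow of wild-type C57BL/6 mice, and their polyadenylated RNA was sequenced in 3 libraries per tissue. Animal age, sort markers, pooling and tissue dissociation are not stated in the labels. The labels number the libraries as replicates without saying that they came from separate animals, so p-values measure the spread between these libraries, which may be technical.

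Long non-coding RNAs act as scaffolds, decoys or guides in the nucleus and cytoplasm, or have no known role beyond the act of their transcription. Others are precursors: host genes carry small nucleolar RNAs in their introns, and primary microRNA transcripts are cut into the short RNAs that silence messengers. Many lie antisense to a coding gene or share a promoter region with one. Transcribed pseudogenes are copies of coding genes, and reads of a copy and its parent are easily exchanged.

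RefSeq now classes 98 members as long non-coding RNA, 29 as transcribed pseudogenes, 12 as microRNA, 6 as protein-coding and 2 as snoRNA, so that for 6 the present class differs from that of the table's transcripts. It lists 1 as another RNA, and 3 were not listed. The span of 69 members overlapped that of a coding gene, for 37 on the opposite strand and for 21 on the same strand. The labels name both a standard and a stranded library kit, and use of strand in the counting is not stated, so reads of overlapping genes cannot be told apart.

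Libraries held between 42045548 (blood replicate 3) and 56796219 (bone marrow replicate 2) reads in the table. A count of 3 reads, the floor used here, was 0.0521 to 0.0767 CPM, a gene's reads relative to the scaled size of its library. Neutrophil markers (10 of 10 in the table, S100a8 and Csf3r among them) summed to 33594 to 61258 CPM in lung, 30660 to 44193 in blood and 84878 to 122487 in bone marrow. They split in direction: at an adjusted p under 0.05 edgeR called 3 higher and 1 lower in lung than blood. It called 2 and 6 in lung than bone marrow, and 1 and 5 in blood than bone marrow, with the shares of all genes given below. With the replicate number as a block, S100a8 was lower and Csf3r higher in both lung and blood than bone marrow. The sum is thus not read as purity. Markers of other cells varied within tissues. Lung epithelial markers (7 of 7 in the table) summed to 74.7 to 879 CPM in lung, 21.05 to 37.1 in blood and 13.8 to 88.9 in bone marrow. Fibroblast and smooth muscle markers (7 of 7) summed to 163 to 1565 CPM in lung, 52.9 to 94.8 in blood and 121 to 270 in bone marrow. The lowest lung value of both lists was that of replicate 3, and replicate 3 of each tissue was also the lowest in erythroid and B-cell markers. Erythroid markers (7 of 7) summed to 32.8 to 428 CPM in lung, 822 to 8812 in blood and 1719 to 9370 in bone marrow, and B-cell markers (6 of 6) to 37.9 to 404, 55.2 to 341 and 24.6 to 96.4 CPM in the same tissue order. The part of other cells in the differences below was not tested beyond the values given.

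The members together took about 1 in 100 reads. Their share was 0.983% ± 0.0379 in lung, 0.975% ± 0.0307 in blood and 0.885% ± 0.139 in bone marrow (SD, n = 3 each). By exact two-sided permutation tests lung differed from blood with p = 0.7, lung from bone marrow with p = 0.4 and blood from bone marrow with p = 0.4, where 3 against 3 cannot go below 0.1. Rn45s, the precursor of ribosomal RNA, set the spread in bone marrow: it took 0.0368%, 0.0620% and 0.306% of reads in bone marrow replicates 1 to 3. Without it the share was 0.860% ± 0.0817 in lung, 0.907% ± 0.0202 in blood and 0.750% ± 0.0231 in bone marrow. All 3 lung and all 3 blood libraries then lay above all 3 bone marrow libraries, with exact p = 0.1, the smallest possible, for both comparisons with bone marrow and p = 0.4 for lung against blood, where the direction turned.

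Levels of different genes are compared per length, as FPKM. The mean over the 9 libraries ran from 0.524 to 1018 FPKM with a median of 8.54, a range that the read limit bounds from below. It passed 100 FPKM for 14 members and stayed under 10 for 81. The nuclear RNAs Malat1, found at splicing speckles, and Neat1, the scaffold of paraspeckles, held 20.6% to 38.1% of all reads of members.

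**Figure D1:**
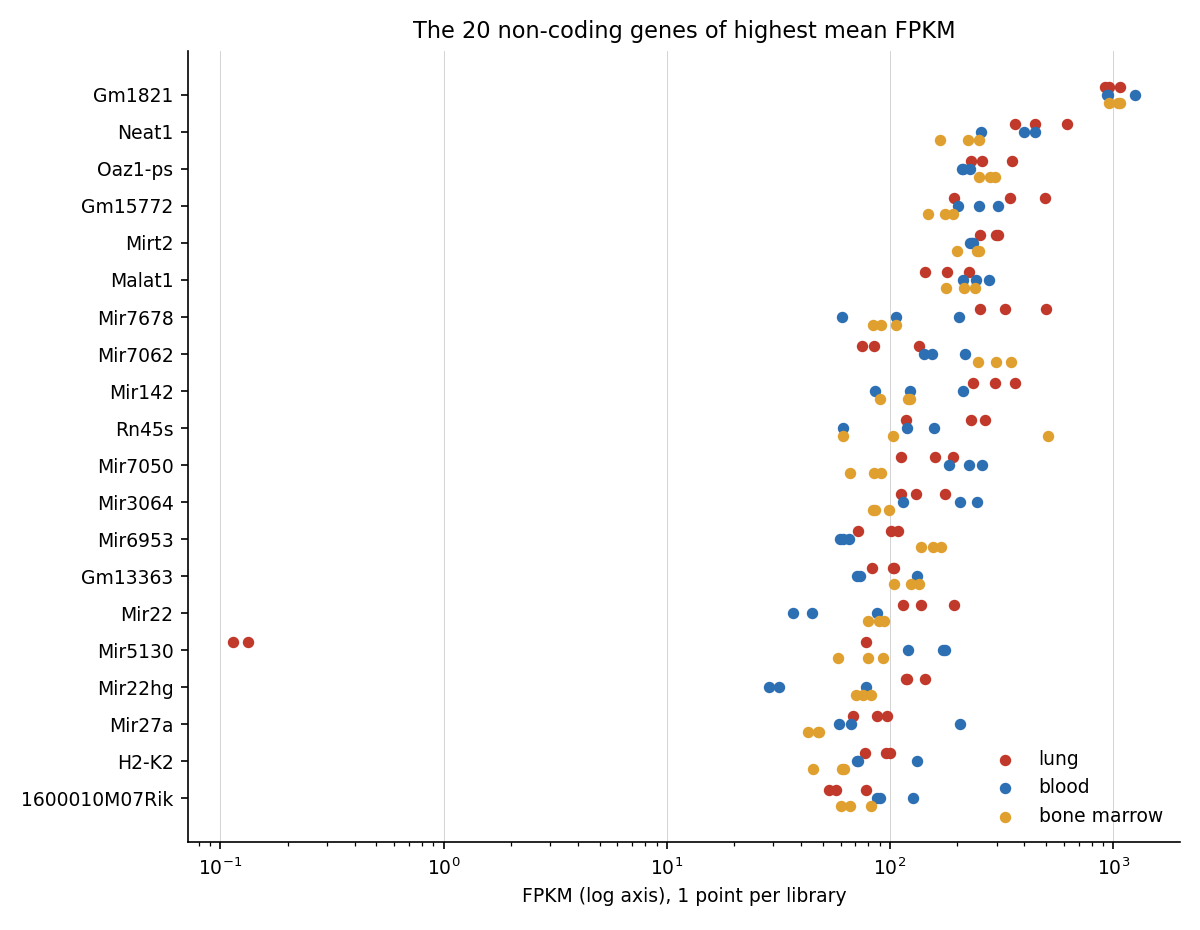
FPKM on a log axis for the 20 members of highest mean FPKM, with 1 point for each of 3 lung, 3 blood and 3 bone marrow libraries. Gm1821 lies near 1000 FPKM in every library, Rn45s has 1 high bone marrow library, and Mir5130 has 2 lung libraries near 0.1 FPKM.

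Neat1 stood at 1110, 1370 and 2889 CPM in lung, 957, 1346 and 1398 in blood and 890, 682 and 1129 in bone marrow. Lung replicate 3 was the highest library by far, and the tissues overlapped. Lung exceeded bone marrow by 0.99 ± 0.38 on the log2 scale (SE) (adjusted p = 0.0657, quasi-likelihood test in edgeR), and with the replicate number as a block by 0.90 with adjusted p = 0.0265. Malat1 stood at 1089, 906 and 2060 CPM in lung, 1857, 1410 and 1461 in blood and 1845, 1706 and 1645 in bone marrow. Its tissues overlapped, and lung against bone marrow gave -0.36 ± 0.31 with adjusted p = 0.386. Within a library, Neat1 had 1.02, 1.51 and 1.40 reads per Malat1 read in lung, 0.516, 0.954 and 0.957 in blood and 0.482, 0.400 and 0.686 in bone marrow. The 3 lung ratios lay above all others, and those of blood and bone marrow overlapped.

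Of the 25 members with several different transcripts, and 3 more with 1 transcript placed at several loci, 0 had a different leading transcript in all libraries of 1 tissue than in all of another. Neat1 has a short form of 3185 bases and a long form of 20769 bases, the one that builds paraspeckles. The long form took 10.6%, 7.33% and 12.5% of Neat1 reads in lung, 22.3%, 15.3% and 11.7% in blood and 14.2%, 13.0% and 7.996% in bone marrow. These are the authors' estimates for 2 forms that share their start, and the tissues overlapped.

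Gm14005 is Morrbid, a long non-coding RNA known in mice for repressing the nearby death gene Bcl2l11 and so prolonging the life of neutrophils, eosinophils and monocytes. It stood at 17.2, 12.8 and 22.3 CPM in lung, 9.40, 8.64 and 9.83 in blood and 16.6, 20.9 and 26.3 in bone marrow. The 3 blood libraries were the lowest of the 9. Lung exceeded blood by 0.91 ± 0.23 log2 (adjusted p = 0.0188) and blood lay below bone marrow at -1.20 ± 0.24 (adjusted p = 0.00762). Both calls were lost when any 1 blood library was left out, and over all alternatives the adjusted p ran from 0.00243 to 0.103 and from 0.00165 to 0.0894. Its shortest transcript, of 578 bases, took 90.9%, 86.8% and 88.4% of its reads in lung, 74.5%, 71.2% and 65.9% in blood and 56.6%, 57.3% and 65.7% in bone marrow. The lung shares lay above all others and the blood shares, by a narrow margin, above those of bone marrow.

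**Figure D2:**
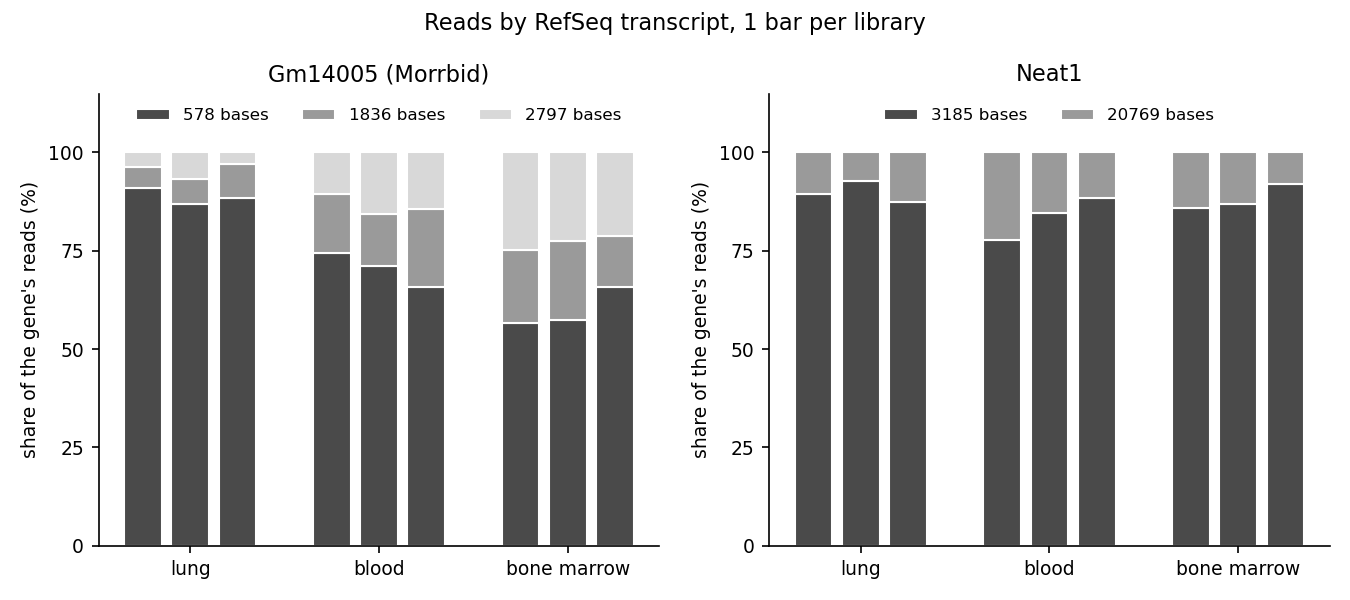
Share of reads in percent on each RefSeq transcript of Gm14005 (Morrbid) and Neat1, 1 bar per library and shades by transcript length in bases. The 578-base form of Gm14005 takes 86.8% to 90.9% in lung, 65.9% to 74.5% in blood and 56.6% to 65.7% in bone marrow, while the 20769-base form of Neat1 stays between 7.33% and 22.3%.

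The 76 members with at least 200 reads in all 9 libraries carry the counts of changed genes, since for a member that reached the level in 1 tissue and not in another the limit itself bears on the contrast. In lung against blood edgeR called 9 higher and 12 lower at an adjusted p under 0.05, or 27.6%. Among all 6383 genes with at least 200 reads in every library, 11.5% were higher, 27.1% lower and 38.5% either, and among all 13510 genes tested 28.9% were called, 13.2% higher and 15.7% lower. In lung against bone marrow 9 were higher and 12 lower, again 27.6%, against 13.6%, 38.7% and 52.3% of the 6383 genes. Of all genes tested, 38.2% were called there, 15.6% higher and 22.6% lower. In blood against bone marrow 9 were higher and 7 lower, or 21.1%, against 10.7%, 19.7% and 30.4% of the 6383 genes. Of all genes tested, 21.4% were called there, 8.34% higher and 13.1% lower. In each comparison the members were called less often than the genes of the same read limit. The gap lay in the lower calls, at 15.8%, 15.8% and 9.21% of members in the order above, while 11.8% were higher in each. The share called was near that of all genes tested in lung against blood and in blood against bone marrow. These differences were not tested.

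The median log2 change of the 76 members was -0.13 in lung against blood, -0.19 in lung against bone marrow and -0.04 in blood against bone marrow. Over the 6383 genes it was -0.21, -0.33 and -0.11. Replicates did not overlap for 27, 32 and 29 members in the same order, against 52.4%, 62.7% and 56.7% of the 6383 genes and 41.6%, 49.0% and 45.4% of all genes tested.

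Single libraries and the scaling moved these counts. In lung against blood, leaving out blood replicate 2 or 3 left 4 higher, leaving out blood replicate 3 left 7 lower, and leaving out lung replicate 3 gave 23 lower. In lung against bone marrow, 20 were lower without lung replicate 3. In blood against bone marrow, 5 were higher without bone marrow replicate 1 or 2 and 4 without bone marrow replicate 3 or blood replicate 2, while 4 were lower without bone marrow replicate 2 or 3, 3 without blood replicate 1, 1 without blood replicate 2 and 2 without blood replicate 3. Upper-quartile scaling moved the median of all genes by 0.16 and 0.32 log2. It gave 13 higher and 11 lower in lung against blood, and 16 higher and 9 lower in lung against bone marrow. Over all genes tested it gave 2194 higher and 1731 lower, and 3105 and 2130, in the same order. In lung against blood DESeq2 gave 13 higher and 9 lower, and its size factors within edgeR 10 and 9. Over all genes DESeq2 gave 2472 higher and 1840 lower there, and its size factors 1885 and 1430. With the replicate number as a block, lung against blood gave 13 higher and 18 lower, and the lower count in lung against bone marrow stayed within 1.5 times at 18. Over all 13510 genes tested, the block gave 2073 higher and 2678 lower in lung against blood, beside 1780 and 2120 without it. In lung against bone marrow it gave 2454 and 3519, beside 2108 and 3050. In blood against bone marrow it gave 1632 and 2358, beside 1127 and 1765. Calls over all genes thus rose too, and these numbers also stand beside the block counts of gene lists below.

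**Figure D3:**
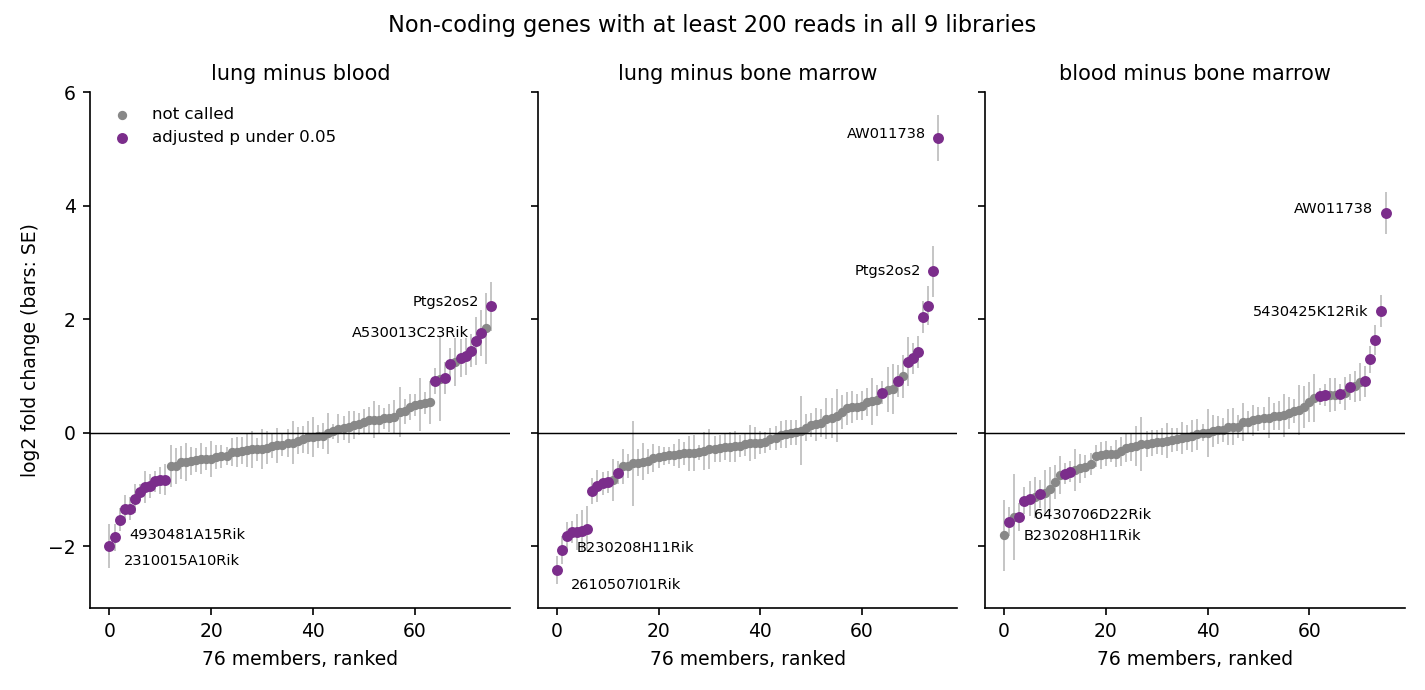
Log2 fold changes with SE for the 76 members with at least 200 reads in all libraries, ranked within each comparison, with genes of adjusted p under 0.05 in purple. In lung against blood 9 members are called higher and 12 lower, in lung against bone marrow 9 and 12, and in blood against bone marrow 9 and 7, with AW011738 far above the rest in both comparisons with bone marrow.

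AW011738 showed the largest differences of the 76 members in both comparisons with bone marrow. It is a single-transcript long non-coding RNA of 2745 bases at chr4:156203284-156206028 on the plus strand in mm10, and overlaps no coding gene. It stood at 104, 182 and 322 CPM in lung, 87.1, 74.1 and 82.1 in blood and 5.34, 5.23 and 6.09 in bone marrow. All lung and blood libraries lay far above bone marrow, and the blood and bone marrow replicates were tight. It rose by 5.19 ± 0.40 log2 in lung against bone marrow (adjusted p = 3.66e-05) and by 3.87 ± 0.38 in blood against bone marrow (adjusted p = 0.000201), and both calls held under every alternative run. Lung against blood gave 1.32 ± 0.34 (adjusted p = 0.0182), a call lost in a fit of the 2 tissues alone and without any 1 blood library.

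The 300 bases around its start, from RefSeq in GRCm38.p6, are shown because it differed most among those 76. Capitals mark the bases from the listed start on, and the window is chr4:156203034-156203333, plus strand.
AW011738: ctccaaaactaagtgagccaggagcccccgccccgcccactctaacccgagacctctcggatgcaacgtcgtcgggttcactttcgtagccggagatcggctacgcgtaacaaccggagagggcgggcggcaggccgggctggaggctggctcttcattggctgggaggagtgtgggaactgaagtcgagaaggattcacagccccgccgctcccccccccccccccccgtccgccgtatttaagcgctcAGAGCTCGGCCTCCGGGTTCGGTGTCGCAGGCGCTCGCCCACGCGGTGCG

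Ptgs2os2, also called lincRNA-Cox2, is known from mouse macrophages as an inducible regulator of inflammatory genes, and is named for the prostaglandin synthase gene that lies near it. It stood at 87.04, 97.6 and 162 CPM in lung, 43.2, 13.8 and 17.2 in blood and 17.6, 12.6 and 18.1 in bone marrow. Every lung library lay above every other library. It rose in lung by 2.22 ± 0.44 log2 against blood (adjusted p = 0.00614) and by 2.84 ± 0.45 against bone marrow (adjusted p = 0.0013), under every alternative run. Of 8 monocyte and macrophage markers, 4 were higher and 0 lower in lung than blood, and 5 higher and 1 lower in lung than bone marrow. Their sum was 485, 599 and 690 CPM in lung replicates 1 to 3, 669 to 776 in blood and 840 to 1255 in bone marrow. Marco, a receptor of alveolar macrophages, stood at 31.8, 23.6 and 0.745 CPM in lung, at most 0.159 in blood and at most 0.941 in bone marrow. Within lung, Ptgs2os2 and the sum of the 8 markers were highest in replicate 3, where Marco was lowest. Of 6 endothelial markers, 5 were higher in lung than blood and 4 higher in lung than bone marrow, with sums of 20.04 to 73.9 CPM in lung, 15.2 to 32.03 in blood and 18.2 to 19.1 in bone marrow. The part of these cells in the Ptgs2os2 values was not tested.

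Its promoter window, chr1:150164899-150165198 on the minus strand, held 2 matches to TTNNGNAA, a pattern close to the site of C/EBP factors, which act in granulocyte development. Both lie on the strand opposite to the gene and are in capitals.
Ptgs2os2: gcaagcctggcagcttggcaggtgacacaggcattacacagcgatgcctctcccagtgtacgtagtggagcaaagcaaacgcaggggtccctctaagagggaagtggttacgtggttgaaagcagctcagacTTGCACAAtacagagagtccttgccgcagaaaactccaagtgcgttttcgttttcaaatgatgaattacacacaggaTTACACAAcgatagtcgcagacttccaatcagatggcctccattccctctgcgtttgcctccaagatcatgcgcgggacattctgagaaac

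TTNNGNAA was searched on both strands of the 83 members with a RefSeq promoter starting within 50 bases of the table's transcript. It occurred in 30 of them, or 36.1%, and in 40.7% of all 27025 gene promoters of the same length. GAGGAAG, a form of the PU.1 site, occurred in 14 members, or 16.9%, against 13.5% of all promoters, and the cyclic AMP response element TGACGTCA in 3, or 3.61%, against 1.88%. A match is a run of letters and not a measured site.

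Il1bos lies opposite to Il1b, the gene of the cytokine interleukin 1 beta. It stood at 21.05, 20.8 and 39.6 CPM in lung, 13.7, 11.7 and 9.58 in blood and 6.72, 5.68 and 7.44 in bone marrow, so that the 3 tissues did not overlap. It rose by 2.04 ± 0.28 log2 in lung against bone marrow (adjusted p = 0.000623). Against blood it gave 1.22 ± 0.27 (adjusted p = 0.0108), a call lost without blood replicate 2 or 3. Il1b itself stood at 6407, 7772 and 13717 CPM in lung, 5199, 6647 and 6515 in blood and 1623, 1601 and 2167 in bone marrow, and rose by 2.37 ± 0.34 in lung against bone marrow (adjusted p = 0.000724). Il1b gave 0.60 ± 0.32 in lung against blood (adjusted p = 0.196) and rose by 1.77 ± 0.33 in blood against bone marrow (adjusted p = 0.00585), where Il1bos gave 0.82 ± 0.27 (adjusted p = 0.0628; 0.0491 with the replicate block). Without strand, Il1bos reads inside Il1b could be those of Il1b.

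A530013C23Rik, with no coding gene in its span, stood at 45.5, 33.1 and 44.97 CPM in lung, 18.03, 5.68 and 12.8 in blood and 16.8, 22.5 and 33.5 in bone marrow. Lung and blood did not overlap, and it rose by 1.76 ± 0.40 log2 in lung against blood (adjusted p = 0.0116). AI839979 stood at 54.5, 46.9 and 95.02 CPM in lung, 28.4, 19.1 and 24.5 in blood and 26.8, 19.1 and 27.5 in bone marrow. It rose by 1.45 ± 0.29 in lung against blood (adjusted p = 0.00618) and by 1.42 ± 0.28 in lung against bone marrow (adjusted p = 0.00462). H2-Q5, of the MHC class I Q region, stood at 40.8, 54.2 and 54.8 CPM in lung, 21.9, 25.6 and 11.3 in blood and 13.2, 11.6 and 6.85 in bone marrow. It rose by 2.24 ± 0.34 in lung against bone marrow (adjusted p = 0.000998), but its reads may be shared with near-identical class I genes. These calls held under every alternative run.

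A set of members had their highest mean in blood. 5430425K12Rik stood at 19.1, 19.8 and 32.2 CPM in lung, 41.1, 31.7 and 53.4 in blood and 8.89, 7.76 and 12.02 in bone marrow, and rose by 2.14 ± 0.28 log2 in blood against bone marrow (adjusted p = 0.00105) and by 1.31 ± 0.28 in lung against bone marrow (adjusted p = 0.00581). 4833418N02Rik stood at 6.37, 5.24 and 9.96 CPM in lung, 14.7, 14.3 and 19.2 in blood and 5.01, 4.74 and 5.75 in bone marrow, and rose by 1.63 ± 0.26 in blood against bone marrow (adjusted p = 0.00288). 5830428M24Rik stood at 15.4, 17.4 and 25.9 CPM in lung, 31.2, 31.1 and 42.6 in blood and 11.7, 13.8 and 17.3 in bone marrow, and rose by 1.29 ± 0.24 in the same comparison (adjusted p = 0.00572). For the last 2 the blood libraries lay above all others, and these calls against bone marrow held under every alternative run.

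4930481A15Rik and Gm20605 were lowest in lung and highest in blood. 4930481A15Rik stood at 7.15, 5.68 and 9.16 CPM in lung, 23.9, 22.02 and 32.6 in blood and 15.1, 12.3 and 17.4 in bone marrow. It fell in lung by 1.84 ± 0.24 log2 against blood (adjusted p = 0.000989) and by 1.02 ± 0.23 against bone marrow (adjusted p = 0.00853). The gene overlaps Drap1, of a transcription repressor complex, on the opposite strand, and Drap1 gave 0.03 ± 0.21 in lung against blood (adjusted p = 0.932). Gm20605 stood at 60.2, 60.1 and 69.9 CPM in lung, 161, 157 and 231 in blood and 97.1, 114 and 137 in bone marrow, and fell in lung by 1.53 ± 0.20 against blood (adjusted p = 0.00104). It shares strand and span with Lrch4, which fell by 1.07 ± 0.26 in the same comparison (adjusted p = 0.0156).

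Others were lowest in lung or highest in bone marrow. 2310015A10Rik stood at 18.7, 19.7 and 30.4 CPM in lung, 49.5, 72.2 and 153 in blood and 75.2, 84.3 and 62.1 in bone marrow, and fell in lung by 1.99 ± 0.39 log2 against blood (adjusted p = 0.00617) and by 1.69 ± 0.39 against bone marrow (adjusted p = 0.00905). 2610507I01Rik stood at 22.95, 34.9 and 40.5 CPM in lung, 73.8, 76.1 and 99.6 in blood and 138, 178 and 209 in bone marrow. The 3 tissues did not overlap, and it fell in lung by 1.34 ± 0.24 against blood (adjusted p = 0.0045) and by 2.42 ± 0.25 against bone marrow (adjusted p = 0.00015). Blood against bone marrow gave -1.07 ± 0.24 (adjusted p = 0.0139), lost without each blood library and without bone marrow replicate 2 or 3. B230208H11Rik stood at 6.70, 7.04 and 11.4 CPM in lung, 11.1, 9.94 and 14.5 in blood and 28.9, 36.5 and 39.8 in bone marrow. Bone marrow was the highest tissue in every library, and the gene fell by 2.06 ± 0.25 in lung (adjusted p = 0.000334) and by 1.56 ± 0.25 in blood (adjusted p = 0.0028) against bone marrow.

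**Figure D4:**
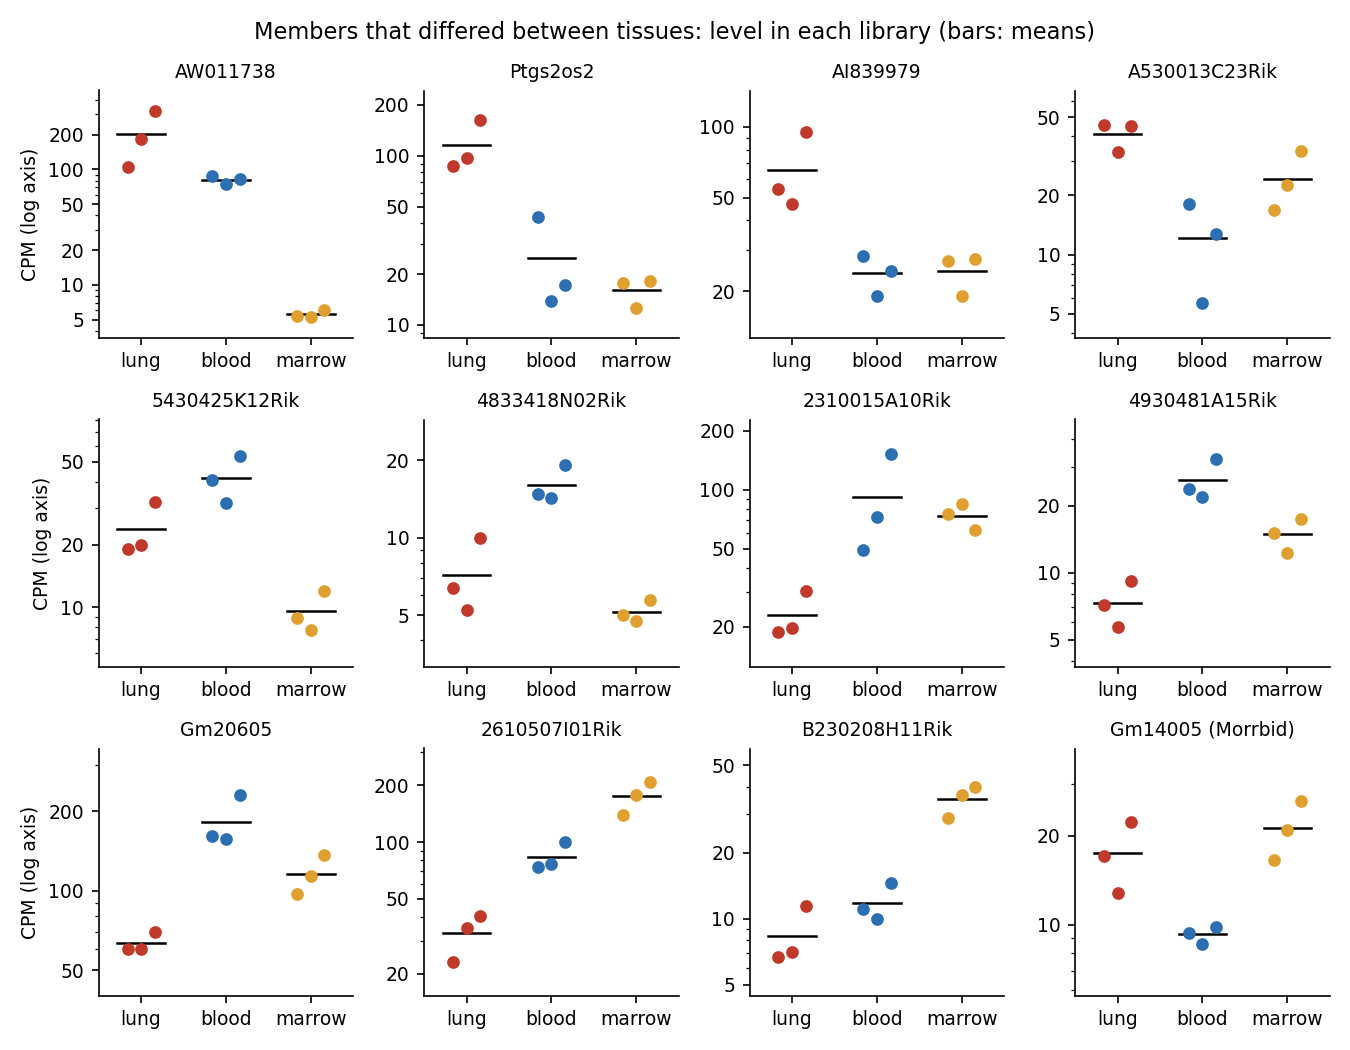
CPM on log axes in each library (points) with tissue means (bars) for 12 members that differed between tissues. AW011738 is at 5.23 to 6.09 CPM in bone marrow and above 74 elsewhere, Ptgs2os2 is highest in the 3 lung libraries, and B230208H11Rik is highest in the 3 bone marrow libraries.

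Of the called members, 3 of 9 higher and 6 of 12 lower in lung than blood kept their call in every alternative run, as did 6 of 9 and 9 of 12 for lung relative to bone marrow. For blood relative to bone marrow 4 of 9 and 1 of 7 did. The RSEM counts cover lung and blood only, so no call against bone marrow met that alternative. Mir7062, among the 9 of 12, had 0 RSEM counts in lung and blood.

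Members that reached the read limit in 1 tissue only are described without a test of the contrasts that the limit fixed. D030028A08Rik, a lung member, had 1190, 1531 and 2321 reads in lung, 40, 32 and 9 in blood and 67, 38 and 19 in bone marrow, or 21.6, 30.5 and 57.6 CPM in lung, 0.872, 0.556 and 0.204 in blood and 1.60, 0.745 and 0.486 in bone marrow. Lung replicate 3 had the most. Among the lung libraries it was lowest in epithelial and fibroblast markers and highest in neutrophil and in monocyte and macrophage markers. The part of other cells was not tested. Its body overlaps the transcription factor gene Sp2 on the opposite strand. Sp2 gave -0.01 ± 0.16 in lung against blood (adjusted p = 0.971) and 0.14 ± 0.16 against bone marrow (adjusted p = 0.504).

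E230013L22Rik, another lung member, lies opposite to Rab20, a small GTPase of maturing phagosomes. It had 30.6, 34.3 and 47.9 CPM in lung, 11.1, 3.02 and 1.99 in blood and 2.79, 1.65 and 2.61 in bone marrow. Rab20 stood at 238, 187 and 384 CPM in lung, 56.98, 13.2 and 16.5 in blood and 37.8, 27.03 and 46.9 in bone marrow, and rose in lung by 3.22 ± 0.58 log2 against blood (adjusted p = 0.00447) and by 2.86 ± 0.57 against bone marrow (adjusted p = 0.00476). Both genes were highest in the 3 lung libraries and, in blood, in replicate 1.

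In bone marrow, 1700047M11Rik had 2342, 3094 and 2819 reads, against 109, 79 and 95 in lung and 75, 98 and 94 in blood. It overlaps no coding gene, and its lung and blood levels, 1.98, 1.57 and 2.36 CPM in lung and 1.63, 1.70 and 2.13 in blood, overlapped (0.11 ± 0.19 log2, adjusted p = 0.707). 9830166K06Rik had 2.61, 3.75 and 4.79 CPM in lung, 2.22, 1.93 and 1.22 in blood and 29.04, 26.01 and 27.2 in bone marrow. 6330418K02Rik had 1.47, 1.32 and 1.71 CPM in lung, 3.71, 3.68 and 5.01 in blood and 7.27, 6.64 and 9.33 in bone marrow, and the coding gene BC037034 on the opposite strand had the same order of tissues, at 30.7, 33.8 and 41.4 CPM in lung, 100, 108 and 168 in blood and 189, 260 and 326 in bone marrow. BC037034 gave -2.87 ± 0.28 in lung against bone marrow (adjusted p = 0.000102).

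Panct2, a member through blood and bone marrow, stood at 2.36, 2.09 and 5.26 CPM in lung, 5.95, 5.01 and 9.56 in blood and 13.6, 13.6 and 18.2 in bone marrow. Blood against bone marrow, which the limit did not fix, gave -1.14 ± 0.39 log2 (adjusted p = 0.0655) and, with the replicate block, -1.20 with adjusted p = 0.00559. Slco4c1, an organic anion transporter gene on the opposite strand, stood at 3.83, 7.71 and 12.5 CPM in lung, 19.7, 19.2 and 26.4 in blood and 32.6, 36.3 and 30.5 in bone marrow, and fell by 2.05 ± 0.37 in lung against bone marrow (adjusted p = 0.00247).

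**Figure D5:**
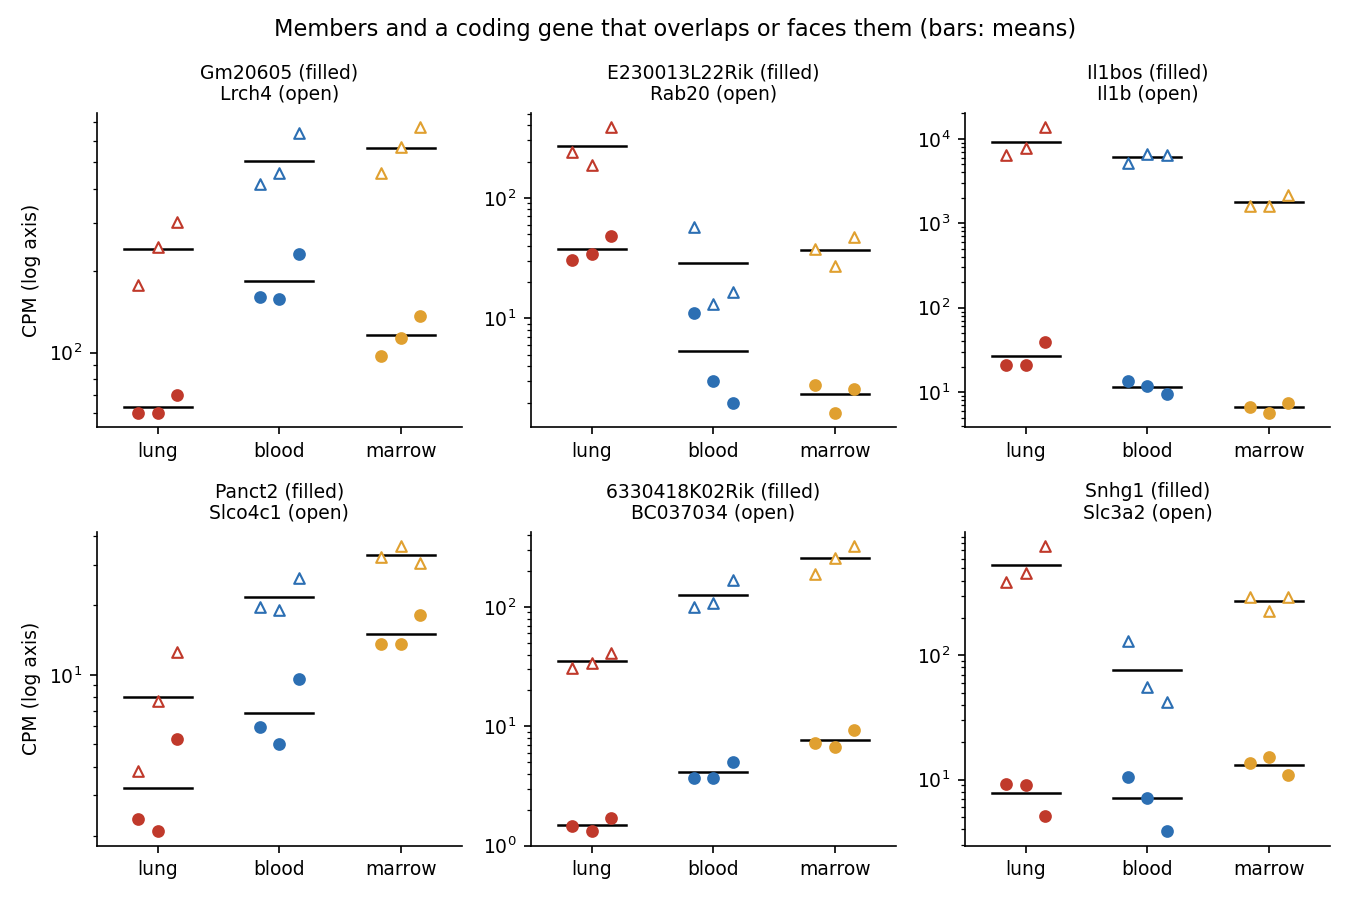
CPM on log axes in each library for 6 members (filled circles) and a coding gene that overlaps or faces each (open triangles), with tissue means as bars. Levels are compared between tissues within a gene and not between the 2 genes, since CPM does not account for length. E230013L22Rik and Rab20 are both highest in the 3 lung libraries, Gm20605 and Lrch4 are both lowest there, while Snhg1 and Slc3a2 differ in order.

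Host genes of small nucleolar RNAs, which guide the chemical modification of ribosomal RNA, supplied 9 members. Their exons are mostly degraded by nonsense-mediated decay, and several start with a pyrimidine tract typical of growth-controlled transcripts. The 5 bases or more of such a tract (C followed by at least 4 C or T, beginning within 5 bases of the start) occurred in 5 of 9 host genes and in 18.5% of all promoters. Each line gives 10 bases before the start and 20 from it on, with the tract in capitals, since the genes differ in it.
Gas5: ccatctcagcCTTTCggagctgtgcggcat
1110038B12Rik: gcggcacacgggtCTCTTTgtgcacccgcc
2410006H16Rik: cgccgtCTTTCTCTgcggccatcatgggat
Snhg8: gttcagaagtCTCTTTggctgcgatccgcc
Snhg12: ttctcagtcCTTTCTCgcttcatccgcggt
Zfas1: tgcgccccgggcggccgcaggtctcggctg
Snhg5: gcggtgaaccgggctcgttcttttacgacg
Snhg1: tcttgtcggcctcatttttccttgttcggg
Snhg15: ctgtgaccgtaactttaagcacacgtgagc

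Gas5, the best known of them, stood at 50.6, 52.7 and 72.6 CPM in lung, 70.6, 41.5 and 38.7 in blood and 62.5, 61.1 and 56.8 in bone marrow, with adjusted p = 0.535 for lung against blood. Zfas1, Snhg8 and 2410006H16Rik also overlapped between all tissues, with log2 changes from -0.18 to 0.13 and adjusted p from 0.523 to 0.904 over the 3 comparisons. Snhg15, a lung member, had 20.1, 20.8 and 24.7 CPM in lung, 8.24, 2.80 and 0.521 in blood and 4.43, 2.49 and 5.86 in bone marrow. Snhg1 starts 118 bases from Slc3a2, which encodes the heavy chain of amino acid transporters, and their tissues ranked differently. Snhg1 stood at 9.30, 8.97 and 5.07 CPM in lung, 10.5, 7.09 and 3.83 in blood and 13.6, 15.2 and 10.9 in bone marrow, while Slc3a2 stood at 388, 457 and 762 in lung, 131, 55.2 and 41.8 in blood and 296, 226 and 294 in bone marrow and rose by 2.82 ± 0.45 log2 in lung against blood (adjusted p = 0.0025).

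Over all 20 tested genes of the host gene list, members or not, 3 were higher and 0 lower in lung than blood, 3 higher and 1 lower in lung than bone marrow, and 0 higher and 1 lower in blood than bone marrow. All genes tested had 13.2% higher and 15.7% lower, 15.6% and 22.6%, and 8.34% and 13.1% in the same order. Leaving out members whose contrast the read limit bears on, 1 was higher in each lung comparison, namely Rian. Under the replicate block, with all 20 tested genes kept, 1 was higher in lung than blood, namely 1110038B12Rik. In lung against bone marrow 3 were higher (Snhg12, Rian and 1110038B12Rik) and 2 lower (Snhg1 and Snhg4). In blood against bone marrow 1 was higher (Snhg12) and 3 lower (Snhg1, Snhg4 and 1110038B12Rik). The read limit bears on both lung contrasts of 1110038B12Rik and both bone marrow contrasts of Snhg12. It also bears on blood against bone marrow for Snhg1. The median log2 changes were 0.29, 0.45 and -0.04, beside 0.05, 0.06 and -0.05 over all genes tested. Snhg4 fell in both lung and blood against bone marrow. Of those higher in lung, Rian, an imprinted gene that is no member, stood at 6.61, 3.71 and 0.869 CPM in lung and below 0.82 in the other libraries, and was lowest in the lung library with the fewest epithelial and fibroblast markers.

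Among microRNA genes the table counts reads at the hairpins. Libraries of polyadenylated RNA are not made to capture mature microRNAs. The RSEM counts of the lung and blood libraries gave 0 reads in all 6 libraries to 9 of the 12 microRNA members and a sum of at most 8 to the others, where the series table gave each a sum of 1200 to 4916. The hairpin values thus depend on the counting. RefSeq lists 19 mature microRNAs for 10 of the 12 members, and no 2 share a seed. Those of the better known genes are shown with the seed, bases 2 to 8, in capitals.
miR-22-5p: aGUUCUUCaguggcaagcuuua
miR-22-3p: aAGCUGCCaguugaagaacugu
miR-142a-5p: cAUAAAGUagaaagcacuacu
miR-142a-3p: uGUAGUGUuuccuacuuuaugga
miR-27a-5p: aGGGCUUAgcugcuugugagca
miR-27a-3p: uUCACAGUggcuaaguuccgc
miR-24-2-5p: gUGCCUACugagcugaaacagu
miR-24-3p: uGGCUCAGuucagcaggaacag

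Mir142, whose products mark blood-forming cells, stood at 13.1, 17.1 and 30.3 CPM in lung, 7.54, 4.55 and 13.4 in blood and 8.49, 6.59 and 10.4 in bone marrow. Lung against bone marrow gave 1.25 ± 0.43 log2 (adjusted p = 0.0459), lost in 8 alternatives, and lung against blood 1.25 ± 0.43 (adjusted p = 0.0571; 0.00769 with the replicate block). Mir22hg, the host of miR-22, stood at 181, 190 and 331 CPM in lung, 132, 41.99 and 55.6 in blood and 160, 143 and 176 in bone marrow. Lung exceeded blood by 1.61 ± 0.42 (adjusted p = 0.0194), a call lost in a fit of the 2 tissues alone and without blood replicate 2 or 3. The hairpin Mir22 held 5.23% to 7.58% as many reads as Mir22hg in every library. Mir27a and Mir24-2, neighbours on chromosome 8, stood highest in blood replicate 3, at 17.8 and 16.6 CPM, and at 4.14 to 10.4 CPM in the other lung and blood libraries.

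Several microRNA members lie within abundant coding genes on the same strand. Mir7062, inside the metalloproteinase gene Adam8, stood at 4.30, 5.06 and 11.7 CPM in lung, 13.7, 7.80 and 10.1 in blood and 25.3, 22.5 and 21.8 in bone marrow, and fell by 1.73 ± 0.38 log2 in lung against bone marrow (adjusted p = 0.00683). Adam8 gave -0.40 ± 0.30 in the same comparison (adjusted p = 0.318). RSEM gave Mir7062 0 counts in all lung and blood libraries, so its values rest on the counting of the series table. Blood against bone marrow gave -1.14 ± 0.37 for Mir7062 (adjusted p = 0.0564; 0.0470 with the replicate block) and -1.53 ± 0.30 for Adam8 (adjusted p = 0.00771). Mir7678, inside Slpi, an antiprotease gene, stood at 30.8, 16.2 and 30.4 CPM in lung, 13.8, 6.27 and 4.30 in blood and 7.10, 6.78 and 10.05 in bone marrow.

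On the list of microRNA and host genes, 16 were tested. In lung 5 were higher and 0 lower against each of blood and bone marrow, and blood against bone marrow had 0 in either direction by edgeR. Leaving out members whose contrast the read limit bears on, 4 were higher in lung than blood and 5 higher in lung than bone marrow. Of all genes tested, 13.2% were higher and 15.7% lower in lung than blood, and 15.6% and 22.6% in lung than bone marrow. For blood against bone marrow these shares were 8.34% and 13.1%. With the replicate block, Dleu2 was lower in lung than blood, and 3 genes were higher in blood than bone marrow. Mir155hg, host of the immune microRNA miR-155 and too low to be a member, had 98, 78 and 95 reads in lung, 4, 3 and 0 in blood and 0, 12 and 4 in bone marrow. It rose by 5.26 ± 1.26 log2 in lung against blood (adjusted p = 0.0139) and was about as high in lung replicate 3 as in the others. H19, an imprinted gene, had 143, 88 and 15 reads in lung, 0 in each blood library and 0, 2 and 8 in bone marrow, and was lowest in the lung library with the fewest epithelial and fibroblast markers. Of 12 tested genes that process microRNAs, 1 was higher and 3 lower in lung than blood, 2 higher and 2 lower in lung than bone marrow, and 1 higher and 0 lower in blood than bone marrow. The shares of all genes tested are those given above for the microRNA and host genes. The replicate block gave 5 lower in lung than blood. Ago2, the slicing argonaute, rose in lung by 1.06 ± 0.30 against blood (adjusted p = 0.0288) and Ago4 fell by 1.28 ± 0.18 (adjusted p = 0.00156).

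Other well-known long RNAs were steady or short of the threshold. Tug1 stood at 136, 166 and 242 CPM in lung, 189, 114 and 159 in blood and 134, 112 and 129 in bone marrow (adjusted p = 0.12 to 0.534 over the 3 comparisons). 2900097C17Rik is Norad, which binds Pumilio proteins, and gave -0.41 ± 0.15 log2 in lung against blood (adjusted p = 0.0776; 0.0497 with the replicate block) and -0.40 ± 0.15 against bone marrow (adjusted p = 0.0651; 0.0410 with the block). 1810026B05Rik is Chaserr, known for holding down its neighbour Chd2, a chromatin remodeller. Chaserr gave 0.02 ± 0.14 in lung against blood (adjusted p = 0.921), where Chd2 rose by 0.66 ± 0.21 (adjusted p = 0.0428), and -0.35 ± 0.14 against bone marrow (adjusted p = 0.0749; 0.0338 with the block), where Chd2 rose by 0.78 ± 0.21 (adjusted p = 0.0179). Dleu2, host of miR-15a and miR-16-1, gave 0.67 ± 0.29 in blood against bone marrow (adjusted p = 0.137; 0.00756 with the block) and -0.52 ± 0.29 in lung against blood (adjusted p = 0.216; 0.0144 with the block). Peg13, an imprinted RNA inside Trappc9, gave -0.50 ± 0.22 in lung against bone marrow (adjusted p = 0.0978; 0.0074 with the block) and -0.42 ± 0.22 against blood (adjusted p = 0.181; 0.0228 with the block). On the list of 18 tested immune and stress RNAs, 3 were higher and 1 lower in lung against each of blood and bone marrow, and 1 was higher and 1 lower in blood than bone marrow. The read limit bears on both lung contrasts of 1 member, Dubr. Without it 3 were higher and 0 lower in each. Of all genes, 13.2% were higher and 15.7% lower in lung than blood, 15.6% and 22.6% in lung than bone marrow, so 3 of 18 lies near the share of higher genes. For blood against bone marrow the shares were 8.34% and 13.1%. With the replicate block 4 were higher and 2 lower in lung than blood, and 6 higher and 1 lower in lung than bone marrow, with Dubr among the lower in both. Mirt1 and Mirt2, named for their rise after myocardial infarction, were among the abundant members and gave adjusted p from 0.179 to 0.952.

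On the list of 14 tested nuclear and chromatin RNAs, 2 were higher in lung than blood and 3 higher in lung than bone marrow, all outside the members, and 0 were lower. These were Firre, Meg3 and Miat. Of all genes tested, 13.2% were higher and 15.7% lower in lung than blood, so 2 of 14 lies near the share of higher genes. In lung against bone marrow 15.6% of all genes were higher and 22.6% lower. With the replicate block 2 were higher and 2 lower in lung than blood, and 4 higher and 3 lower in lung than bone marrow, with Neat1 among the higher and Norad and Peg13 among the lower. Firre and Miat kept a call with the block in 1 lung comparison each, and Meg3 in 0. Meg3, another imprinted gene, stood at 18.9, 8.87 and 1.51 CPM in lung and at 0.451 to 1.89 in the other libraries, and was thus lowest in lung replicate 3. Of 14 tested genes for proteins of paraspeckles and speckles, 2 were higher and 0 lower in lung than blood, 5 higher and 1 lower in lung than bone marrow, and 3 higher and 0 lower in blood than bone marrow. The 2 of 14 higher in lung than blood lie near the 13.2% of all genes. All genes tested had 15.6% higher and 22.6% lower in lung than bone marrow, and 8.34% and 13.1% in blood than bone marrow. Sfpq, a core paraspeckle protein, rose in lung by 0.84 ± 0.16 log2 against blood (adjusted p = 0.00564) and by 0.73 ± 0.16 against bone marrow (adjusted p = 0.0073).

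Copies of coding genes were among the most abundant members by FPKM. Gm1821, a ubiquitin gene copy, averaged 1018 FPKM, Oaz1-ps, a copy of the antizyme gene Oaz1, 257 and Gm15772, listed at the ribosomal protein gene Rpl26, 256. In all, 8 pseudogene members are listed at the place of their parent gene or at several places that include it, the others being Gm13363, Gm10052, Gm6793, Gm9855 and BC002163. The series table gave them 7.95 to 14653 times as many reads as RSEM did, against a median of 2.02 over 131 members, of which 65 lay between 1.5 and 2.5 times. A further 10 matched members had 0 RSEM counts and so no ratio. Their values may be those of the parent genes, and the 3 members named with values here gave adjusted p from 0.0219 to 0.86 with no call that held under every alternative. With the replicate block, lung against blood gave adjusted p = 0.0375 for Gm15772 and 0.0442 for Oaz1-ps, against 0.0795 and 0.0887 without it.

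Of 13 tested genes on the list of retained pseudogenes, 0 were called in lung against blood, 3 were lower in lung than bone marrow and 2 lower in blood than bone marrow. All genes tested had 28.9% called in lung against blood. They had 22.6% lower in lung and 13.1% lower in blood than bone marrow, near the 3 and 2 of 13. The 6 tested small structural RNA genes had 0 calls in each comparison by edgeR.

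Gm12070 depended on the pipeline. The series table had 0 reads in each lung library, 3034, 2905 and 0 in blood and 6788, 8690 and 8614 in bone marrow. RSEM gave 33.9, 20.8 and 74.6 counts in lung and 49.6, 49.8 and 37.0 in blood, and a log2 change of 0.06 between them. Mir5130 had 313, 1 and 1 reads in lung, 652, 691 and 441 in blood and 310, 456 and 253 in bone marrow, while RSEM gave it 0 in all lung and blood libraries. No statement on tissues rests on these 2 genes.

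Rn45s stood at 1166, 1403 and 902 CPM in lung, 345, 760 and 686 in blood and 393, 690 and 3949 in bone marrow. Bone marrow replicate 3 had the highest value of the 9. Rnf8-cmtr1, a readthrough RNA of 2 coding genes, stood at 89.8, 104 and 211 CPM in lung, 40.4, 35.9 and 37.2 in blood and 65.9, 50.5 and 280 in bone marrow. Its lung and blood libraries did not overlap (1.84 ± 0.63 log2, adjusted p = 0.0568; 0.0380 with the replicate block), and bone marrow replicate 3 was again the highest.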

How the data were processed

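Per the file headers, the deposited series table gives whole read counts per RefSeq transcript, not normalized, and FPKM computed by the authors. Per the file headers, the lung and blood libraries also have RSEM expected counts, TPM and FPKM, used here only as an alternative and, for genes outside the table, a check; TPM, a deposited value, was not analysed. The submitters' processing notes name Bowtie2, STAR, StringTie 2.1.3b, RSEM, DESeq2 and mm10 without their roles.

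Counts were summed by gene and all 9 libraries fitted with edgeR 4.0.16 (R 4.3.3; filterByExpr, TMM, robust quasi-likelihood test, group means, Benjamini-Hochberg over 13510 genes, threshold 0.05). CPM is scaled by TMM. RSEM counts were rounded to whole numbers. DESeq2 1.42.0 and limma 3.58.1 (log2 of FPKM + 0.1 or + 1, and voom) served as alternatives.

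The members and lists were chosen with earlier results of these data known. Named genes were list members, the 10 members of highest FPKM, the 8 largest called rises and falls per comparison and neighbouring coding genes; others were chosen after their values were seen. Same-numbered libraries deviated together, with r from 0.114 to 0.539 over 9 pairs, and from -0.581 to 0.496 over 18 other pairs. Deviations were taken from each tissue's mean, so the range of the other pairs is not an independent reference. A fit with the replicate number as a block was therefore run for all genes and is given mainly where it changed a call. Values given without mention of the block come from the fit without it. Depth limits apply to counting error only. A result on 1 neighbouring gene is not reported here.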

Additional observations from a re-analysis of the deposited data

Results flagged for a closer look

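The mitochondrial ribosomal RNA genes, which are not in the series table, were higher in lung than blood in the RSEM counts. mt-Rnr1 stood at 1787, 1648 and 2432 CPM in lung and 103, 96.7 and 125 in blood, a log2 difference of 4.17 ± 0.29 (SE; adjusted p = 0.00185, edgeR). mt-Rnr2 stood at 2800, 2135 and 3331 CPM in lung and 338, 306 and 423 in blood, a log2 difference of 2.95 ± 0.29 (adjusted p = 0.00243, edgeR). Both signals lie outside the main measurement, and every lung library was above every blood library.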

How the results depend on the processing

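Over the named genes, 4758 values kept their side of the threshold, 341 lost a call and 205 gained one. A turn of direction was counted only where the main fit or the alternative called the gene. This held for 1 value: Gm12070 in lung against blood, at 0.0639 log2 in the RSEM counts. The cause was not tested. The share of reads in members, lung minus blood, turned to -0.0467 percentage points without Rn45s, an alternative chosen after seeing the data. Leaving out 1 library at a time gave 4 to 9 members higher and 7 to 23 lower in lung than blood, 6 to 9 higher and 10 to 20 lower in lung than bone marrow, and 4 to 10 higher and 1 to 10 lower in blood than bone marrow. Limma on log2(FPKM + 0.1) and log2(FPKM + 1) both gave 21 lower in lung than blood and 17 higher in blood than bone marrow, and 15 and 14 higher in lung than bone marrow. Over all genes tested these fits gave 2863 and 2919 lower in lung than blood, beside 2120 in the main fit. They gave 2251 and 2266 higher in blood than bone marrow, beside 1127, and 2396 and 2169 higher in lung than bone marrow, beside 2108. Upper-quartile scaling gave 16 higher in lung than bone marrow, and 3105 over all genes. DESeq2 size factors gave 4 lower in blood than bone marrow, and no filter 3. Over all genes these gave 1373 and 1110, beside 1765. Among members that overlap no coding gene, fewer by construction, 6 were lower in lung than bone marrow and 4 lower in blood than bone marrow. With a limit of 100 reads, 23 were lower in lung than blood and 21 lower in lung than bone marrow. The members added this way had missed the main read limit in some library. That limit can itself bear on their contrasts, so these higher counts are not an independent check. With 400 reads, 5 were higher and 7 lower in lung than blood, 4 higher in lung than bone marrow and 4 higher in blood than bone marrow. With the replicate block the counts were 13 higher and 18 lower, 12 higher and 18 lower, and 11 higher and 9 lower in the 3 comparisons, in the order above. The block also raised the calls over all genes tested, with the numbers given in the Results. Values near 3 reads carry no order.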
